A study of Mus musculus with 10 samples.

Results

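Fc receptors bind the constant (Fc) part of antibodies and couple antibody-coated particles to the macrophage that meets them. Here 6 Fc receptor genes were followed: the activating receptors Fcgr1, Fcgr3 and Fcgr4, their common signalling subunit Fcer1g, the inhibitory receptor Fcgr2b, and the neonatal Fc receptor Fcgrt. The members were taken by gene symbol, and all 6 stood in each library's table of 21938 genes. All 6 were also among the 11564 genes with at least 10 reads in at least 3 libraries, the genes that were tested. None of the 6 passed the test in any comparison of the 3 groups. A single library, Ptdss1 knockdown replicate 1, was the lowest of the 10 for 4 of the 6 genes.

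The cells were macrophages sorted from mammary tumours of C57BL/6 mice, 5 weeks after PyMT mammary tumour cells, cells from mice with a polyoma middle T transgene, had been injected into 2 glands per animal. Control stands for wild-type hosts with wild-type tumour cells (3 libraries). In the Mertk KO group, with 4 libraries, the tumour cells were wild-type and the host lacked Mertk in macrophages. Mertk is a receptor kinase through which macrophages recognise dying cells, and neither the Cre driver nor the deleted exons are stated in the labels. In the third group, with 3 libraries, the host was wild-type and the tumour cells carried a knockdown of Ptdss1, an enzyme that makes phosphatidylserine, the lipid that marks dying cells. This is called the Ptdss1 knockdown group, although its macrophages were not manipulated themselves. All groups shared the strain, the tumour model and the time point. The question the design poses is whether loss of the receptor, or less of the enzyme that makes its lipid signal, alters the macrophages in the tumour.

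An activating Fc receptor binds antibody with its own chain and signals through Fcer1g, the Fc receptor gamma chain, whose immunoreceptor tyrosine-based activation motif (ITAM) is phosphorylated by Src-family kinases and then recruits Syk. Fcgr1 binds monomeric IgG with high affinity, Fcgr3 binds immune complexes with low affinity, and Fcgr4 binds IgG2a and IgG2b with intermediate affinity. Fcgr2b carries an immunoreceptor tyrosine-based inhibition motif (ITIM) in its own tail, recruits the lipid phosphatase SHIP1 (Inpp5d) and dampens the activating signal. Fcgrt works differently: it pairs with B2m inside the cell and returns IgG from endosomes to the surface.

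The sequences below show what separates an activating from an inhibitory chain. Both were read from GENCODE M21 coding sequences on GRCm38 (mm10), with 6 codons on either side of the motif. Capitals mark the codons that define each motif, which are the tyrosines and the following leucines for the ITAM, and the isoleucine, tyrosine and leucine for the ITIM. The ITAM covers codons 65 to 79 of the 86 in Fcer1g, with tyrosines at codons 65 and 76. The ITIM covers codons 317 to 322 of the 340 in Fcgr2b, with its tyrosine at codon 319. Both stretches cross exon junctions, and their outer bounds are chr1:171229871-171230998 for Fcer1g and chr1:170961053-170961201 for Fcgr2b, each on the minus strand.
Fcer1g ITAM: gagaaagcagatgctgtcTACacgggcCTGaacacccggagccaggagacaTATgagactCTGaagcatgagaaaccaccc
Fcgr2b ITIM: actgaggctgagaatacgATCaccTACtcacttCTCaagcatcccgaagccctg

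Of the 6 coding sequences, Fcer1g was the only one with a match to the ITAM spacing. The looser ITIM pattern, searched over whole coding sequences and so also in parts that lie outside the cell, matched Fcgr2b once. It also matched Fcgr1 at 3 places and Fcgr4, Fcer1g and Fcgrt at 1 place each. A pattern match is a description of letters, and the ITIM printed above is the one known to act in Fcgr2b.

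Of the 6 genes, 4 lie within 1 cluster on chromosome 1. In GRCm38 coordinates they are Fcgr2b (ENSMUSG00000026656, chr1:170958617-170976547, minus strand), Fcgr4 (ENSMUSG00000059089, chr1:171018920-171029761, plus strand), Fcgr3 (ENSMUSG00000059498, chr1:171051174-171064935, minus strand) and Fcer1g (ENSMUSG00000058715, chr1:171229572-171234365, minus strand). Fcgr1 (ENSMUSG00000015947) is at chr3:96282909-96293969 and Fcgrt (ENSMUSG00000003420) at chr7:45092990-45103851, both on the minus strand.

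Fcgr2b and Fcgr3 share part of their coding sequence, which bears on how far their values can be kept apart. Their best local alignment ran over 509 columns at 96.46% identity, against 65.3% to 72.84% for the other pairs among Fcgr1, Fcgr2b, Fcgr3 and Fcgr4. The longest identical run was 129 bases, which is longer than the 75-cycle single reads. It is printed with 30 bases on either side, from coding bases 248 to 436 of Fcgr2b and 233 to 421 of Fcgr3, with the differing bases in capitals. The genomic bounds, introns left out of the letters, are chr1:170966644-170968111 and chr1:171054137-171057822, both on the minus strand.
Fcgr2b: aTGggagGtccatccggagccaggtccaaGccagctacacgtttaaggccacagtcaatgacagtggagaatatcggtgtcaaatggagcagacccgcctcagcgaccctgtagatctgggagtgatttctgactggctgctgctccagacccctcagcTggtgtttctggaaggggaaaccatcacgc
Fcgr3: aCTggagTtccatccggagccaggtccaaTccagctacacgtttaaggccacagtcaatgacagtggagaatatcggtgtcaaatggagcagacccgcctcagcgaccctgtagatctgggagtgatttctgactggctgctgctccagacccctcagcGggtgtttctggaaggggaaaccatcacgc

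Of the 1627 distinct 75-base windows in Fcgr3 transcripts, 94 (5.78%) also occurred in Fcgr2b, and none occurred in another gene. Of the 3791 windows in Fcgr2b, the same 94 made up 2.48%, and 8.26% occurred in some other gene. Fcgr1, Fcgr4, Fcer1g and Fcgrt had 0 shared windows. How reads from the shared windows were assigned when the counts were made is not stated, so Fcgr2b and Fcgr3 values are uncertain in that part. A share of windows is not a share of reads, so the size of that part is not known.

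The libraries held 10292592 to 25815071 reads. In 2 of them fewer genes were found at 10 reads or more, namely Control replicate 2 with 9066 and Ptdss1 knockdown replicate 1 with 6995, against 9585 to 11523 in the other 8. They are called the low-complexity libraries, and results that rest on them are also given without them. Summed markers of macrophages, a list of 15 genes that includes Fcgr1 and Mertk, took 25198 to 47843 CPM (reads scaled to the library total), and 14 or 15 of the 15 had at least 10 reads in every library. Other cell types that carry Fc receptors gave far less. Neutrophil markers summed to 28.9 to 277 CPM with S100a9, Ly6g, Elane and Camp at 0 in all 10 libraries, and B and plasma cell markers to at most 55.2. Mast cell and basophil markers summed to at most 141, with Ms4a2, Fcer1a, Mcpt8 and Tpsb2 at 0 in all 10. That highest sum was in Ptdss1 knockdown replicate 1, where 8 of the 9 markers were at 0. Sums over NK cell markers, a cell type that carries Fcgr3 and Fcer1g, were 99.5 to 234 in Control, 31.6 to 57.3 in Mertk KO and 63.1 to 187 in Ptdss1 knockdown. These sums, too, rested on few markers. Of the 9, 1 to 5 had at least 10 reads in Mertk KO, and 3 to 7 in Control and in Ptdss1 knockdown. In Mertk KO replicate 4, 8 of the 9 were at 0. The part of NK cells in the values below was not tested. Tumour epithelium markers summed to 21.2 to 31.6 in Control, 62.5 to 159 in Mertk KO and 0.213 to 59.965 in Ptdss1 knockdown. All 4 Mertk KO libraries were thus above the other 6 in this sum, which rested on few markers. In Mertk KO only 1 to 3 of the 7 had at least 10 reads, and Epcam, Krt7, Krt14 and Krt5 were at 0 in all 4 libraries. Of the 4 markers tested, 2 were above Control in Mertk KO and 2 below. The part of tumour epithelium was not tested either. Sums over the other lists were at most 41.9 for T cells, 24.6 for endothelial cells and 41.9 for fibroblasts. For dendritic cells the highest was 509, in Mertk KO replicate 3, and the next was 119, in Ptdss1 knockdown replicate 2. In sorted bulk samples, fewer cells of a type and less RNA per cell cannot be told apart. The Mertk gene itself differed by -0.32 (SE 0.70) between Mertk KO and Control, and since the deleted part is not known this does not check the label.

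Taken per kilobase of summed exons, Fc receptor transcripts were among the more abundant of the 11564 genes tested. By the mean over the 10 libraries, Fcer1g ranked 12th, Fcgr3 ranked 53rd, Fcgr4 78th, Fcgr2b 167th, Fcgr1 528th and Fcgrt 624th. Within single libraries the ranks ran from 6 to 18 for Fcer1g, from 31 to 105 for Fcgr3, from 51 to 303 for Fcgr4 and from 111 to 316 for Fcgr2b. They varied more for Fcgr1, from 312 to 3063, and for Fcgrt, from 312 to 1476. Together the 6 genes took 0.338% of all reads in Ptdss1 knockdown replicate 1 and 1.40% in Mertk KO replicate 2, the lowest and the highest library. A member's value in a single library rested on 651 to 203367 reads. These are reads after amplification and not independent molecules, so their number does not give the sampling error.

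The order of the levels per kilobase was nearly the same in every library. Fcer1g stood first in 10 of 10 libraries, at a mean log2 level per kilobase of 16.33 ± 0.80 (SD, n = 10). Fcgr3 came next at 13.71 ± 0.52 and Fcgr4 at 13.15 ± 0.67, with Fcgr3 above Fcgr4 in 10 of 10 libraries, though the lowest margin was 0.043. Fcgr2b followed at 12.30 ± 0.34, below Fcgr4 in 9 of 10 libraries. Fcgr1 at 10.65 ± 0.82 and Fcgrt at 10.44 ± 0.71 were lower still, and neither was above the other in more than 6 of 10 libraries, so their order did not exceed the spread.

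The place of the inhibitory receptor in that order depended on which transcript was taken as its length. Fcgr2b has 5790 bases of summed exons, a longest coding transcript of 3544 bases and a shortest complete one of 1084 bases. With the shortest transcript its mean log2 level per kilobase became 14.72, above Fcgr3 and Fcgr4 in 10 of 10 libraries. With the longest it was 13.01, below Fcgr3 in 10 of 10 and below Fcgr4 in 9 of 10. Without values per transcript, the order of Fcgr2b against Fcgr3 and Fcgr4 cannot be read from these data. Fcgr1 was below Fcgr2b in 10 of 10 libraries with each of the 3 lengths, by a mean of -1.65, -2.36 and -4.07 log2 units with summed exons, the longest and the shortest transcript. Differences of one gene between groups do not depend on this length.

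**Figure D1:**
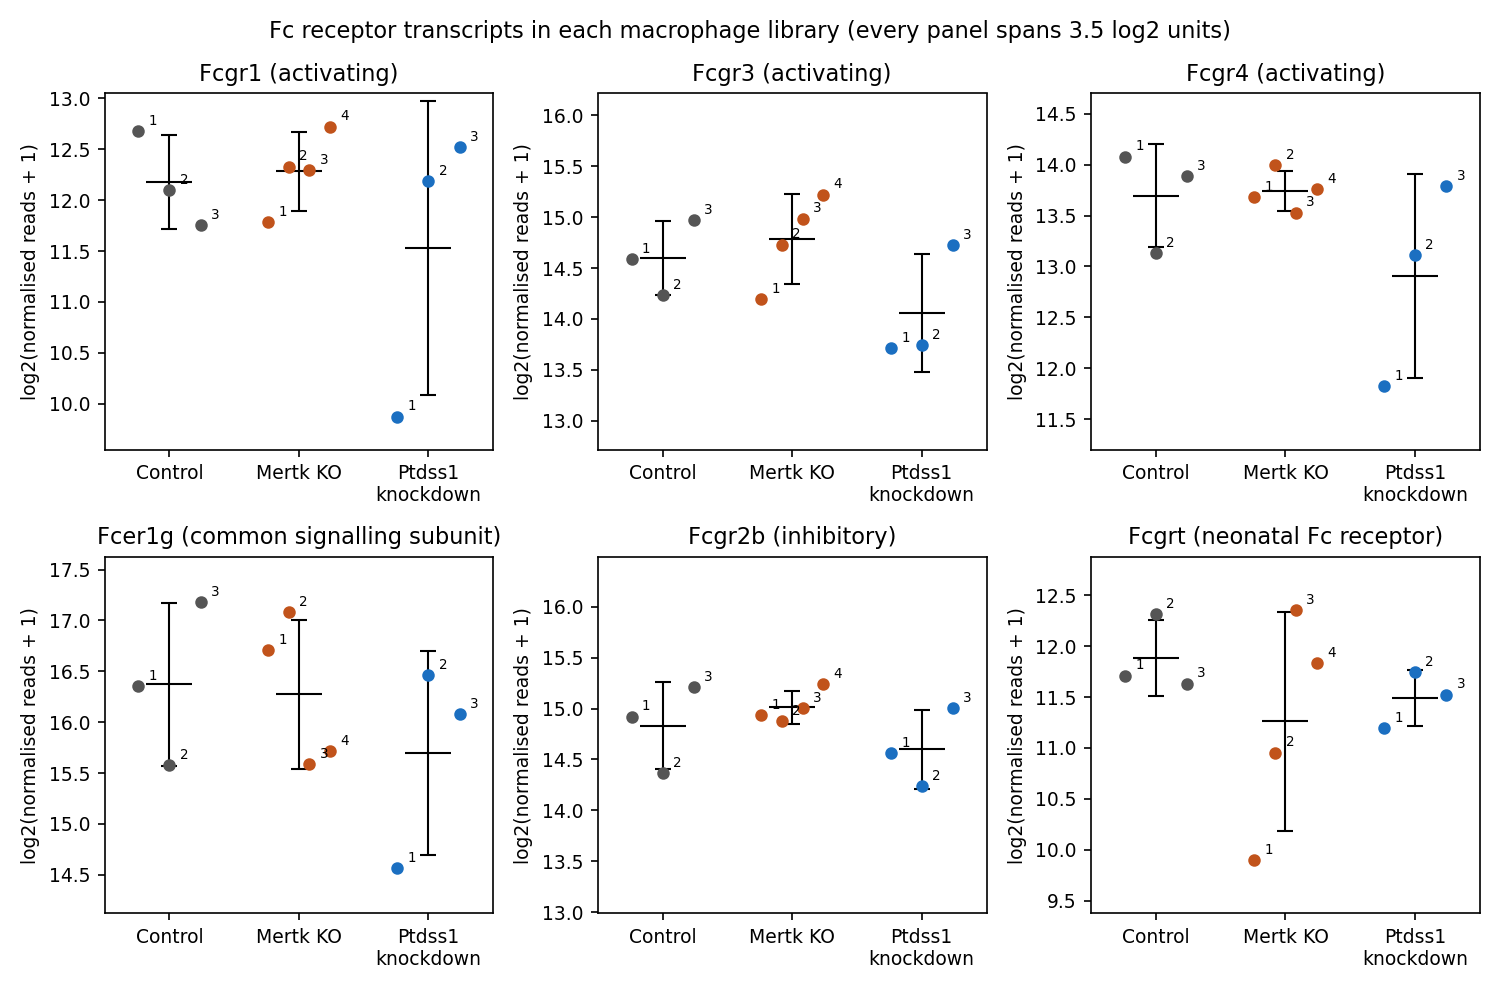
Level of each Fc receptor gene in each library as log2(normalised reads + 1), with 3 Control, 4 Mertk KO and 3 Ptdss1 knockdown libraries as numbered points and the mean with SD as bars. The groups overlap for all 6 genes, and Ptdss1 knockdown replicate 1 is the lowest library for Fcgr1, Fcgr3, Fcgr4 and Fcer1g.

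Among the activating receptors, Fcgr1 had the widest spread. Its log2 level, as log2(normalised reads + 1), was 12.68, 12.10 and 11.76 in Control replicates 1 to 3, then 11.78, 12.33, 12.29 and 12.72 in Mertk KO, and 9.87, 12.19 and 12.52 in Ptdss1 knockdown. A single library, Ptdss1 knockdown replicate 1, stood below all others, and the remaining 9 lay within about 1 log2 unit. The group means were 12.18 ± 0.47 (SD, n = 3), 12.28 ± 0.39 (n = 4) and 11.53 ± 1.44 (n = 3).

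Fcgr3 was at 14.59, 14.24 and 14.97 in Control, at 14.19, 14.73, 14.99 and 15.22 in Mertk KO, and at 13.71, 13.74 and 14.73 in Ptdss1 knockdown. Here 2 Ptdss1 knockdown libraries were below every other library and the third lay inside the Control range. The means were 14.60 ± 0.37 (SD, n = 3), 14.78 ± 0.44 (n = 4) and 14.06 ± 0.58 (n = 3).

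Fcgr4 was at 14.08, 13.13 and 13.88 in Control, at 13.68, 13.996, 13.53 and 13.76 in Mertk KO, and at 11.82, 13.11 and 13.79 in Ptdss1 knockdown. All 4 Mertk KO libraries fell inside the Control range. Of the Ptdss1 knockdown libraries, replicate 1 was the lowest of the 10, replicate 2 was just under the lowest Control library, and replicate 3 was inside the Control range. The means were 13.70 ± 0.50 (SD, n = 3), 13.74 ± 0.20 (n = 4) and 12.91 ± 1.00 (n = 3).

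Fcer1g, the subunit on which the surface expression of the activating chains depends, was at 16.36, 15.58 and 17.18 in Control, at 16.71, 17.08, 15.59 and 15.71 in Mertk KO, and at 14.56, 16.46 and 16.08 in Ptdss1 knockdown. High and low libraries occurred in every group, and the Mertk KO libraries split into a pair near the top of the Control range and a pair near its bottom. The means were 16.37 ± 0.80 (SD, n = 3), 16.27 ± 0.73 (n = 4) and 15.70 ± 1.00 (n = 3).

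Fcgr2b, the inhibitory receptor, was the steadiest of the 6. It was at 14.92, 14.37 and 15.21 in Control, at 14.93, 14.87, 15.00 and 15.24 in Mertk KO, and at 14.56, 14.24 and 15.01 in Ptdss1 knockdown. The lowest and the highest of the 10 libraries were 1.00 log2 units apart, against 1.51 to 2.85 for the other 5 genes. Its SD over the 10 libraries was 0.34, and only 1.75% of the genes tested had a smaller one. For the other 5 genes that share was 9.43% to 26.3%. It was taken over genes of every level and was not matched to genes as abundant as the members. For comparison, the SD was 0.82 for Fcgr1, 0.80 for Fcer1g, 0.71 for Fcgrt, 0.67 for Fcgr4 and 0.52 for Fcgr3. In Ptdss1 knockdown replicate 1, where the activating chains were lowest, Fcgr2b stayed inside the Control range. Without that library the SD of Fcgr1 was 0.35, that of Fcgr4 0.35 and that of Fcgr2b 0.34, so the contrast with those 2 genes rested on 1 library. Without it, Fcgr3 still had 0.47 and Fcer1g 0.61.

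Fcgrt was at 11.71, 12.31 and 11.63 in Control, at 9.90, 10.95, 12.35 and 11.83 in Mertk KO, and at 11.20, 11.75 and 11.52 in Ptdss1 knockdown. The 2 lowest libraries were both Mertk KO, and so was the highest. The means were 11.89 ± 0.37 (SD, n = 3), 11.26 ± 1.07 (n = 4) and 11.49 ± 0.28 (n = 3). Its partner B2m was at 17.68 ± 0.87, 17.49 ± 0.56 and 16.96 ± 0.59 in the same order of groups, and the libraries in which Fcgrt was lowest were not low in B2m.

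Mertk KO against Control asks what loss of the receptor in the host's macrophages does to these transcripts. No Fc receptor gene passed the test: 0 of 6 were called, where 0.0173% of all genes tested were called (limma, Benjamini-Hochberg adjusted p below 0.05). The log2 fold changes, Mertk KO minus Control, were 0.10 for Fcgr1, 0.19 for Fcgr3, 0.045 for Fcgr4, -0.098 for Fcer1g, 0.18 for Fcgr2b and -0.63 for Fcgrt, each with a limma adjusted p of 1.0. The ranges of both groups overlapped for 6 of 6, while 5.62% of all genes tested had ranges that did not overlap. The 95% intervals say how large a change could have been missed, given the variation among these libraries. For Fcgr2b the interval ran from -0.54 to 0.91 and for Fcgr3 from -0.62 to 0.99, so that changes beyond about 2-fold in either direction lay outside both. With upper-quartile size factors their upper ends were 1.08 and 1.20, so this limit did not hold under every alternative. For Fcgr4 it ran from -0.88 to 0.97 with the deposited values and from -1.18 to 1.28 with upper-quartile factors. For Fcgr1, from -1.04 to 1.25, Fcer1g, from -1.13 to 0.93, and Fcgrt, from -1.72 to 0.46, the interval with the deposited values left room for more than 2-fold. The median over the 6 genes was 0.074, beside 0.016 over all genes tested, and 4 of 6 were above 0, as were 50.9% of all genes. Without Control replicate 2 the median over the 6 genes was -0.15, beside -0.083 over all genes, and 2 of 6 were above 0, beside 45.4% of all genes.

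Ptdss1 knockdown against Control asks the same of macrophages in tumours whose cells carry the Ptdss1 knockdown. Again 0 of 6 Fc receptor genes were called, as was 0.00% of all genes tested. The log2 fold changes, Ptdss1 knockdown minus Control, were -0.65 for Fcgr1, -0.54 for Fcgr3, -0.79 for Fcgr4, -0.67 for Fcer1g, -0.23 for Fcgr2b and -0.40 for Fcgrt. All 6 were below 0, with a median of -0.59 beside -0.053 over all genes, of which 48.0% were above 0. The smallest limma adjusted p was 0.841. The ranges overlapped for 6 of 6, beside 6.92% of all genes whose ranges did not overlap. The interval of Fcgr4 ran from -1.78 to 0.20 and that of Fcgr2b from -1.01 to 0.54.

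Ptdss1 knockdown replicate 1 weighed on these values. Without it the log2 fold change of Fcgr1 was 0.18, that of Fcgr4 -0.25 and that of Fcer1g -0.10. Fcgr3 was at -0.36, Fcgr2b at -0.21 and Fcgrt at -0.25. The median over the 6 genes was -0.23 while that over all genes was 0.12. Of the 6, 5 stayed below 0, while 56.5% of all genes were above 0. The 2 comparisons with Control share the Control libraries, so their values are not independent of each other.

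Mertk KO against Ptdss1 knockdown compares the manipulations directly. Here too 0 of 6 were called, beside 0.00% of all genes. The log2 fold changes, Mertk KO minus Ptdss1 knockdown, were 0.75 for Fcgr1, 0.72 for Fcgr3, 0.83 for Fcgr4, 0.57 for Fcer1g, 0.41 for Fcgr2b and -0.23 for Fcgrt. The smallest limma adjusted p was 0.805, and the smallest unadjusted p were 0.0755 for Fcgr3 and 0.0758 for Fcgr4. The ranges overlapped for 6 of 6, beside 5.23% of all genes whose ranges did not. The median over the 6 genes was 0.65 beside 0.11 over all genes, and 5 of 6 were above 0 beside 54.0% of all genes. Without Ptdss1 knockdown replicate 1 the median over the 6 genes was 0.15, beside -0.11 over all genes. There 4 of 6 values stayed above 0, beside 43.4% of all genes.

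**Figure D2:**
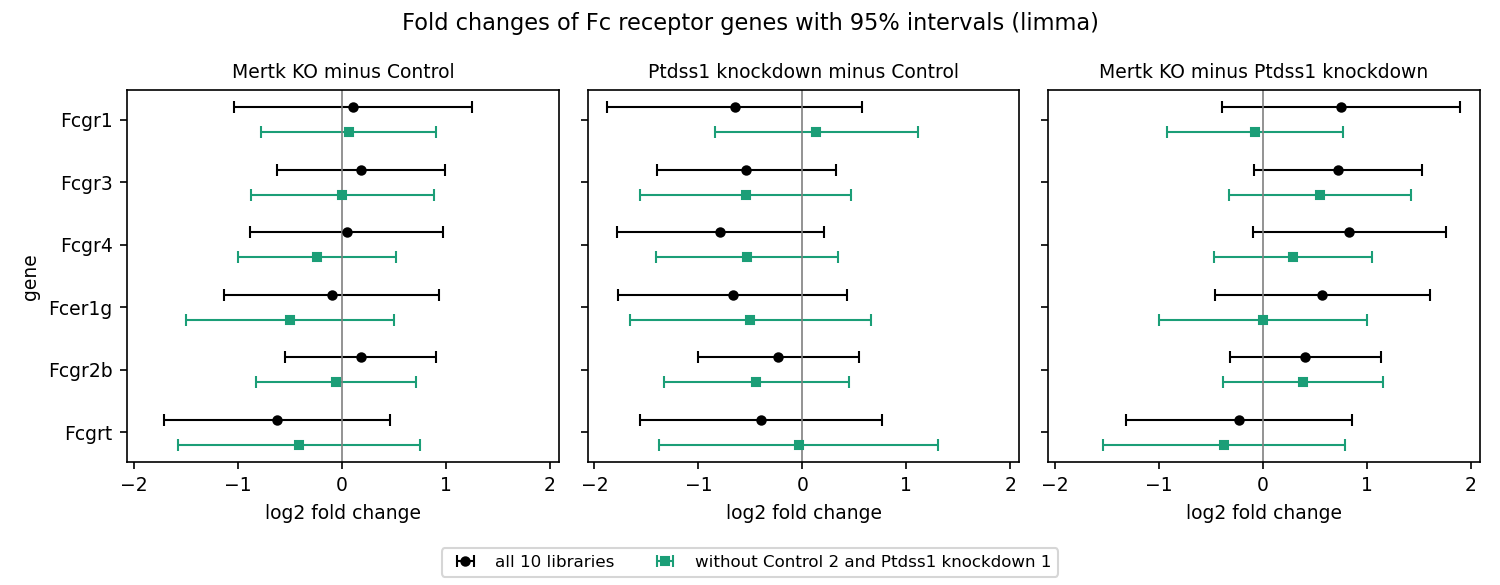
Log2 fold change of each Fc receptor gene with its 95% interval in the 3 comparisons, from all 10 libraries (black circles) and without the 2 low-complexity libraries (green squares). Every interval includes 0 in both versions, and the Fcgr1 value changes sign in the comparisons that involve Ptdss1 knockdown.

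The balance of activating against inhibitory receptors was read within each library, as the log2 level of each activating gene minus that of Fcgr2b, a difference that the size factor of a library cannot move. For Fcgr3 it was -0.24 ± 0.10 (SD, n = 3) in Control, -0.23 ± 0.34 (n = 4) in Mertk KO and -0.54 ± 0.29 (n = 3) in Ptdss1 knockdown. These values are not per length, so their distance from 0 says nothing about which receptor is more abundant, and only the groups can be set side by side.

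For Fcgr4 the difference to Fcgr2b was -1.14 ± 0.26 (SD, n = 3) in Control, -1.27 ± 0.28 (n = 4) in Mertk KO and -1.69 ± 0.91 (n = 3) in Ptdss1 knockdown. For Fcgr1 it was -2.65 ± 0.69, -2.73 ± 0.29 and -3.07 ± 1.41 in the same order. The subunit Fcer1g stood above Fcgr2b by 1.54 ± 0.39, 1.26 ± 0.86 and 1.10 ± 1.11. With all 10 libraries, the groups overlapped for all 4 genes in each of the 3 comparisons. Without the 2 low-complexity libraries, the Fcgr1 difference was lower in Mertk KO than in Ptdss1 knockdown by -0.46. Ptdss1 knockdown replicates 2 and 3, the only ones left, were at -2.05 and -2.48, and the highest Mertk KO library was at -2.52. Those ranges thus came close without overlapping. The share of all genes that separated in this way was not computed, so no result is read from the separation. Ptdss1 knockdown against Control moved from -0.42 to 0.58 for Fcgr1, with overlapping ranges. For the other genes the groups still overlapped.

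Averaged over Fcgr1, Fcgr3 and Fcgr4, the balance was -1.34 ± 0.29 (SD, n = 3) in Control, -1.41 ± 0.22 (n = 4) in Mertk KO and -1.77 ± 0.86 (n = 3) in Ptdss1 knockdown. Mertk KO differed from Control by -0.069 and Ptdss1 knockdown from Control by -0.43. Without the 2 low-complexity libraries those differences were -0.0041 and 0.13, so the lower balance in Ptdss1 knockdown rested on its replicate 1, where the ratio of the activating mean to Fcgr2b was 0.148, against 0.305 to 0.454 in the other 9 libraries. No test was made on these differences, since the genes that enter them were chosen.

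**Figure D3:**
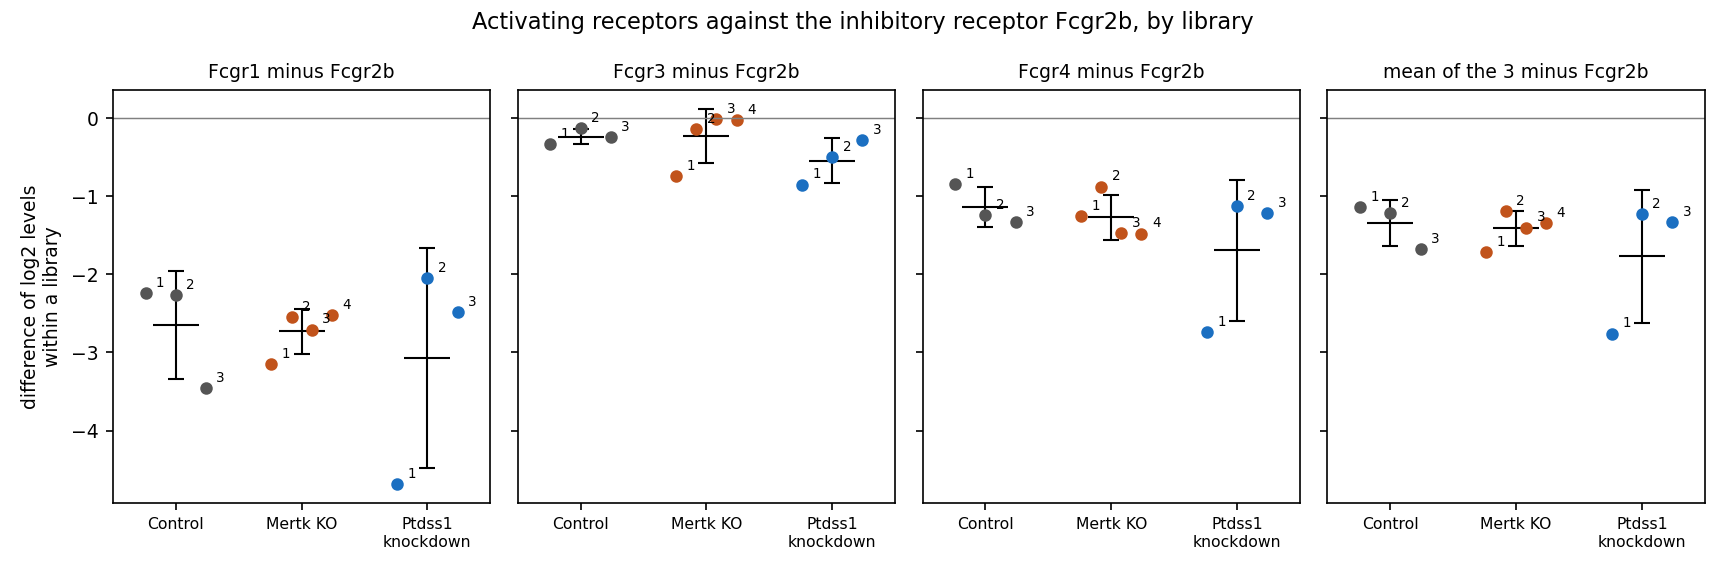
Log2 level of each activating receptor, and of their mean, minus that of the inhibitory receptor Fcgr2b within each library, with numbered points per library and mean with SD as bars. Ptdss1 knockdown replicate 1 is the lowest point in the Fcgr1, Fcgr3, Fcgr4 and mean panels, and with all libraries the groups overlap in every panel.

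The members did not follow one common pattern over the 10 libraries. Likeness was measured as the root-mean-square difference between the log2 values of a pair of genes, each taken from its own mean, over all 10 libraries. The median over all genes tested was 1.53 to 1.73, depending on the member. The measure grows with the spread of either gene, and the members varied less than most genes. From 1.75% (Fcgr2b) to 26.3% (Fcgr1) of the genes tested had a smaller SD than a member. That median is therefore no yardstick for how far a pair of members varied together. Fcgr3 and Fcgr2b, which also share sequence as printed above, were 0.27 apart. Fcgr2b was the third most similar of all genes to Fcgr3, and Fcgr3 the 19th to Fcgr2b. Fcgr1 and Fcgr4 were 0.41 apart, and Fcgr4 and Fcer1g 0.49. Fcgrt was distant from every other member, from 0.72 for Fcgr3 to 1.17 for Fcer1g.

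The genes most like each member were mostly outside the Fc receptor pathway. For Fcgr2b they included Aoah, which inactivates lipopolysaccharide, at 0.22, and Ms4a6d at 0.22. For Fcgr3 they were Lrpap1 at 0.25 and Serinc1 at 0.27, ahead of Fcgr2b. For Fcgr4 they were Jtb, Emc4 and Tmem50a at 0.26 each. For Fcgr1 they were 2210016F16Rik at 0.21, CT030661.1 at 0.22 and Pex7, a peroxisomal import receptor, at 0.27. For Fcgrt they were Stk19 at 0.35, Puf60 at 0.36 and Mri1 at 0.38.

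Fcer1g stood apart by having very close neighbours. Those were Rbx1 at 0.13 and Nedd8 at 0.15, which act in cullin ubiquitin ligases, and Serf2 at 0.17. The members' transcripts differ in length, and Fcer1g is the shortest with 874 bases of summed exons. After this had been seen, the median deviation of the 160 tested genes with under 1000 bases of summed exons and a mean log2 level above 8 was computed in each library. It was 0.23, -0.49 and 0.99 in Control, 0.49, 0.74, -0.35 and -0.41 in Mertk KO, and -1.34, 0.67 and -0.05 in Ptdss1 knockdown. Fcer1g deviated by 0.23, -0.56 and 1.05, then 0.58, 0.95, -0.54 and -0.42, then -1.57, 0.33 and -0.05. The subunit was thus high where short transcripts in general were high and low where they were low. The adaptor Tyrobp and B2m took the same sign as the short genes in 10 of 10 and 9 of 10 libraries. The part of transcript length in the Fcer1g values was not tested further.

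**Figure D4:**
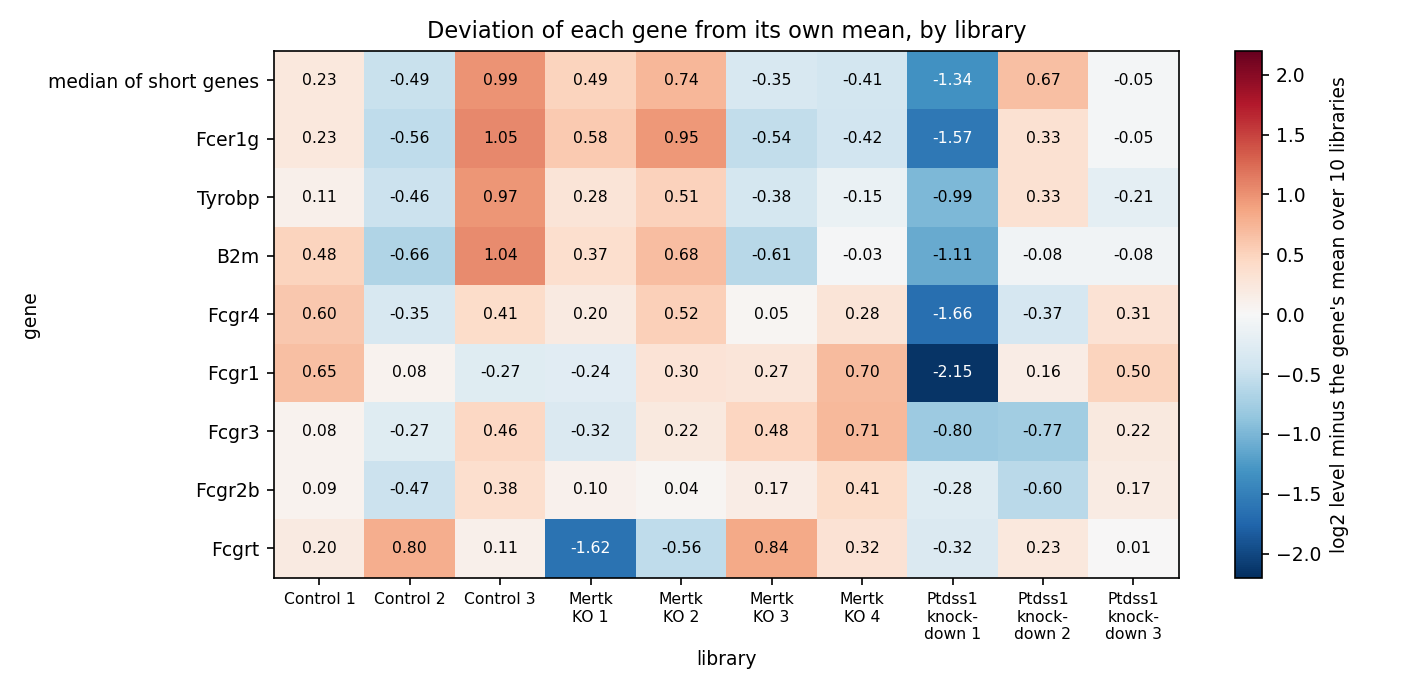
Deviation of each gene's log2 level from its own mean over the 10 libraries, with libraries in columns and genes in rows, coloured from blue (lower) to red (higher), and the median of 160 short genes in the top row. Fcer1g follows the top row from 1.05 in Control replicate 3 to -1.57 in Ptdss1 knockdown replicate 1, while Fcgr2b stays between -0.60 and 0.41.

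Genes that carry the signal inside the cell were counted in lists chosen by their role. Of 34 genes of ITAM signalling, all tested, 0 were called in any of the 3 comparisons, and 15, 21 and 14 had fold changes above 0 in Mertk KO against Control, Ptdss1 knockdown against Control and Mertk KO against Ptdss1 knockdown. The medians were -0.12, 0.18 and -0.23, beside 0.016, -0.053 and 0.11 over all genes tested. Of all genes tested, 50.9%, 48.0% and 54.0% were above 0, shares that also stand beside the counts of the lists below. Lyn, the Src-family kinase that phosphorylates both motifs, differed by 0.058, 0.64 and -0.58 in that order. It was at 13.02 ± 1.01 (SD, n = 3) in Ptdss1 knockdown, and without replicate 1 of that group the last 2 values were 0.070 and -0.012. Syk, the kinase recruited to the ITAM, differed by -0.54, -0.20 and -0.33, and without that library the last 2 were -0.42 and -0.12. The smallest unadjusted p in this list were 0.0518 for Pik3cd, a catalytic subunit of PI3-kinase, at -1.82 in the direct comparison, and 0.0655 for Plcg2, a phospholipase, at 1.09 in Ptdss1 knockdown against Control. Fgr, another Src-family kinase, was at 1.39 there. Without Ptdss1 knockdown replicate 1 these were -0.48 for Pik3cd, 0.68 for Plcg2 and 0.15 for Fgr.

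On the inhibitory side, 25 of 26 listed phosphatases and ITIM receptors were tested and 0 were called. Fold changes above 0 numbered 14, 17 and 10 of 25 in the same order, with medians of 0.015, 0.23 and -0.27. Inpp5d, the phosphatase that Fcgr2b recruits, was at 11.81 ± 0.22 (SD, n = 3) in Control, 11.38 ± 0.15 (n = 4) in Mertk KO and 11.75 ± 0.69 (n = 3) in Ptdss1 knockdown. Its fold changes were -0.43, -0.059 and -0.37, the last 2 becoming -0.45 and 0.024 without Ptdss1 knockdown replicate 1. All 4 Mertk KO libraries were below the lowest Control library, a separation that 5.62% of all genes showed in either direction, and Inpp5d did not pass the test over all genes. Ptpn6 (SHP-1), another phosphatase, was at 0.52, 1.09 and -0.57. Its level in Ptdss1 knockdown was 12.995 ± 1.31 (SD, n = 3), and without replicate 1 the last 2 were 0.35 and 0.17. Clec4a2, a C-type lectin with an ITIM, had the smallest unadjusted p of the list, 0.00601 in Mertk KO against Control. Its mean was 10.54 ± 0.63 (n = 4) in Mertk KO, 11.92 ± 0.31 (n = 3) in Control and 11.68 ± 0.22 (n = 3) in Ptdss1 knockdown. The fold change was -1.38 (SE 0.44) with a limma adjusted p of 1.0. In Ptdss1 knockdown against Control, Lilrb4a was at 0.97 and Pirb at 1.12, both inhibitory receptors, with limma adjusted p of 0.841 each, and without replicate 1 they were at 0.44 and 0.23.

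Other receptors use Fcer1g or its relative Tyrobp as their signalling chain. Of 20 such genes 17 were tested, 0 were called, and 8, 10 and 8 had fold changes above 0, with medians of -0.040, 0.65 and -0.029. Tyrobp itself was at 15.31 ± 0.72 (SD, n = 3) in Control, 15.17 ± 0.41 (n = 4) in Mertk KO and 14.81 ± 0.66 (n = 3) in Ptdss1 knockdown. Trem2, a lipid receptor that signals through Tyrobp, was at -1.11 in Ptdss1 knockdown against Control, and Trem1, an amplifier of inflammation, was at -2.60 (SE 1.27). Neither passed, and without Ptdss1 knockdown replicate 1 they were at -0.14 and -0.52. Clec4e (Mincle), a receptor that pairs with Fcer1g, was at -2.95 (SE 1.36) in the direct comparison, with an unadjusted p of 0.0444, and at -2.78 without that library.

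Of 13 other Fc receptors and partners, 6 passed the filter on low reads and 0 were called, with medians of 0.83, 0.39 and -0.36. Those tested included Fcrls, an Fc receptor-like protein, at 2.05 (SE 1.36) in the direct comparison, Fcrl1 at -3.48 (SE 1.84) in Mertk KO against Control, and Trim21, a cytosolic antibody receptor, at 1.78 (SE 1.07) in Ptdss1 knockdown against Control. Without Ptdss1 knockdown replicate 1, Fcrls was at 0.40 and Trim21 at 0.63. The IgE receptor chains Fcer1a and Ms4a2 had 0 reads in all 10 libraries. Of the 90 measured genes that start within 300 kb of a member, 63 were tested and 0 were called. Fold changes above 0 numbered 36, 43 and 22, beside 50.9%, 48.0% and 54.0% of all genes tested. The medians were 0.20, 0.33 and -0.26, beside 0.016, -0.053 and 0.11 over all genes. These neighbour counts were not repeated without Ptdss1 knockdown replicate 1.

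Interferon gamma is known to raise Fcgr1 in macrophages, and the myeloid factor Spi1 (PU.1) to drive Fc receptor genes. The letters GAGGAA, a core bound by Spi1, were searched on both strands of 32851 promoters from RefSeq on GRCm38.p6 and found in 28.3%. Among the members' 7 promoters (Fcgr3 has 2 overlapping ones) they stood in those of Fcgr1, Fcgr3 and Fcgr4, and not in those of Fcgr2b, Fcer1g or Fcgrt. A match describes letters and is no evidence of binding. Of 22 regulators and targets of interferon gamma, all tested, 0 were called, and 15, 16 and 11 had fold changes above 0, with medians of 0.24, 0.27 and -0.013. Gbp2, a guanylate-binding protein induced by interferon, was at 13.35 ± 0.21 (SD, n = 4) in Mertk KO and 12.27 ± 0.39 (n = 3) in Control, a fold change of 1.08 (SE 0.43) with an unadjusted p of 0.0234 and a limma adjusted p of 1.0. Irf9, a factor of the interferon response, was at 1.69 (SE 0.70) in Ptdss1 knockdown against Control, with an unadjusted p of 0.0264, and at 0.67 without replicate 1 of that group. Fcgr1 itself was at 0.10 and -0.65 in those comparisons.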

How the data were processed

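Per the labels' protocols, sorted macrophage RNA was amplified by 16 PCR cycles (SMART-Seq v4), made into libraries with a kit that does not mark strand, and read in one run of 75 cycles. The submitters' processing notes name STAR, RSEM and mm10 without versions; the annotation and how values were normalised were not stated there. The authors deposited 1 table per library, with decimal commas and no stated unit; the values lie on equal steps once log2(value + 1) is undone, so they were read as log2 of normalised counts plus a pseudocount of 1. Whole reads were recovered for 100% of values (tolerance 0.01 reads) and used for depth and filtering. They are not independent molecules.

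Genes with at least 10 reads in at least 3 libraries (11564) were fitted with limma-trend (limma 3.58.1, R 4.3.3; robust, two-sided, Benjamini-Hochberg over all genes, threshold 0.05), all 10 libraries in 1 fit with a mean per group. The test was checked on simulated reads with a fixed dispersion and 200 changed genes. That dispersion was not matched to the spread of these libraries, so the check does not give the power here. Nothing says which libraries came from separate animals, so p-values reflect only variation among these libraries, which may be technical. Levels were set per kilobase of summed exons (GENCODE M21). The members and lists were chosen with earlier results of these data known. Named genes are the members, the nearest partners, up to 3 genes of smallest p per list and comparison, and the 3 genes most like each member, of which 1 is not reported here. Alternatives were other size factors, filters, a pseudocount of 8, limma-voom, no robust moderation, array weights, a threshold of 0.1, only the compared groups, other transcript lengths, and leaving out libraries. The choice of transcript lengths and of short genes was made after seeing the data.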

Additional observations from a re-analysis of the deposited data

How the results depend on the processing

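No Fc receptor gene passed under any of 22 alternatives in any comparison. The smallest limma adjusted p of a member was 0.347, for Fcgrt with array weights in the direct comparison. Of 396 values of single members under alternatives, 374 kept their sign and 22 took the opposite one, and 10 of 18 results never changed sign. No paired analysis was possible because the labels give no replicate numbers that groups share.

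In Mertk KO against Control, array weights gave -0.15 for Fcgr1, -0.088 for Fcgr3, -0.11 for Fcgr4, 0.16 for Fcer1g and -0.043 for Fcgr2b. Without both low-complexity libraries Fcgr4 was at -0.24 and Fcgr2b at -0.053. Leaving out 1 library at a time gave -0.11 to 0.35 for Fcgr1, -0.24 to 0.24 for Fcgr4, -0.50 to 0.31 for Fcer1g and -0.053 to 0.37 for Fcgr2b. In Ptdss1 knockdown against Control, Fcgr1 was at 0.077 with array weights, at 0.14 without both low-complexity libraries, and at -1.15 to 0.18 leaving out 1 library. In the direct comparison the same gave -0.23, -0.072 and -0.072 to 1.25 for Fcgr1, and -0.59 to 0.22 for Fcgrt leaving out 1 library. Leaving out 1 library moved the difference in the activating-to-inhibitory balance to between -0.24 and 0.032, between -0.70 and 0.065, and between -0.13 and 0.63 in the 3 comparisons.

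Of all genes tested, 2 were called in Mertk KO against Control. The count was 0 with upper-quartile factors, with total reads, without a filter and with a filter of 50 reads, 1 without robust moderation, 25 with array weights, and 0 to 4 leaving out 1 library. It was 0 in Ptdss1 knockdown against Control (335 at unadjusted p below 0.05) and 2 with array weights. It was 0 in the direct comparison (431 at unadjusted p below 0.05), 35 with array weights, and 1 without both low-complexity libraries. The cause was not tested. Upper-quartile factors moved the median of all genes from -0.053 to -0.23 in Ptdss1 knockdown against Control and from 0.11 to 0.30 in the direct comparison, and the members moved with it. With the longest and the shortest transcript the level of Fcgr2b per kilobase was 13.01 and 14.72.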
